A study of Mus musculus with 2 samples.

Results

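Complement is a set of plasma and membrane proteins that mark microbes and dying cells for removal, and 34 of the 35 listed genes for its components, receptors and regulators had a probe under their name on the array used here. They were taken by name alone, from the gene names in the scanner tables, and had 58 probes, whereas the whole series covered 24787 genes whose names occur in RefSeq. RNA came from cells of Peyer's patches, lymphoid tissue in the wall of the small intestine, released by digestion with collagenase D, dispase II and DNase I. The mice were S100A4-GFP transgenic animals on the C57BL/6 strain, so both groups carry the reporter, and a cell sorter separated S100A4-positive from S100A4-negative cells. Each group is 1 sample on 1 array, and the reporter construct, the age, sex and number of the mice and the sort gates are not given in the sources used here. The listed gene C1s was the exception: this array names it C1s1, it therefore fell outside the rule, and its 3 probes were not well above background on either array, with signals of at most 13.5.

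The cascade has 3 entrances. In the classical pathway the recognition molecule C1q, made of the chains of C1qa, C1qb and C1qc, binds antibody or dying cells. It carries the proteases C1r and C1s, and C1s cleaves C4 and C2. In the lectin pathway mannose-binding lectins and ficolins act with the MASP proteases. In the alternative pathway factor B and factor D amplify the deposition of C3, which properdin stabilises. All 3 lead to C3 and then to the membrane attack complex of the terminal components. Most circulating components are made by the liver, while C1q and properdin come largely from leukocytes and macrophages in particular, and host cells protect themselves with membrane proteins such as CD55, CD59 and Crry (Cr1l).

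The probes that carry the main contrasts are shown to let the measurement be read as a sequence. All are 60 bases long, are printed 5′ to 3′ in lower case as the array files give them, and have at least 1 reading frame without a stop codon. The C1qa and C1qb probes lie in the same gene cluster and differed alike between the arrays, the Cfb probe belongs to the most divergent alternative pathway gene, and the probes of Cd55 and Cr1l report a membrane regulator that was low in the positive cells and another that was not. On the mm9 build they lie on the minus strand at chr4:136452409-136452468 (C1qa), chr4:136436578-136436637 (C1qb), chr17:34993502-34993858 (Cfb), chr1:132353415-132353474 (Cd55) and chr1:196937328-196940863 (Cr1l). The Cfb and Cr1l probes are placed over a stretch longer than themselves, that is, across a gap in the genome; exon and UTR annotation of that build was not used here.
C1qa: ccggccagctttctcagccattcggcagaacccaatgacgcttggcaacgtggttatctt
C1qb: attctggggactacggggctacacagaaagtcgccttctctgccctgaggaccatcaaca
Cfb: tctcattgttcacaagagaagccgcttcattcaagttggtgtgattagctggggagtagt
Cd55: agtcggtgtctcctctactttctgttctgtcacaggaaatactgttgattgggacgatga
Cr1l: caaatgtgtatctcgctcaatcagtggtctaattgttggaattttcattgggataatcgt

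Signals below are the background-subtracted brightness of a probe on each array, in arbitrary units, and cannot be compared between probes. A difference is the log2 signal of the positive array minus that of the negative array after each was divided by the 75th percentile of its spots, controls aside (445.9 for the negative array, 287.3 for the positive one), which adds 0.63 to the log2 ratio of the signals. The error given with it (±) is the scanner software's for the spots involved; a fold difference of 2 or more is called higher or lower. With 1 array per group no test could be made and no p-value is given, and nothing here measures the spread between mice, sorts or labelling reactions. The sort can be checked on S100a4, which read 1057 in the negative cells and 119341 in the positive cells, 175-fold apart. Spots well above background made up 53.3% of those on the negative array and 52.3% of those on the positive one, controls aside, and none was saturated. A gene well above background on 1 array alone has a bound, written "at least". All directions are relative to the 75th percentile: scaling on the spike-in controls in its place moved the median of all named genes by -2.50, and using no scaling moved it by -0.63. In RNA from a mixed population, fewer cells of a type and less RNA per cell cannot be told apart.

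Of the 34 genes, 24 were well above background on at least 1 array and 10 on neither. Relative to the 75th percentile, 15 of the 24 were at least 2-fold higher in the positive cells, where 21.3% of 15228 named genes were, and 2 were at least 2-fold lower, where 17.0% were. The other 7 lay under 2-fold, but only 3 of these were measured on both arrays, and for the other 4 the value is a bound that the true difference may exceed. A gene seen only on the positive array had to come out higher, so the 17 genes measured on both arrays are given separately: 12 were higher, against 17.7% of 12953 named genes with such a probe, and 2 were lower, against 16.4%. The median difference of the 24 genes was 1.93, or 1.84 with bounds, and 2.23 over the 17; over all named genes these medians were 0.02, 0.0046 and 0.0067. The spike-in scale, which lowers all genes together, had 6 of the 24 higher, where 3.91% of all named genes were, and 9 lower, where 83.1% were. C1qa, C1qb, C1qc, C2, C3 and Cfb were the 6 that stayed at least 2-fold higher.

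**Figure D1:**
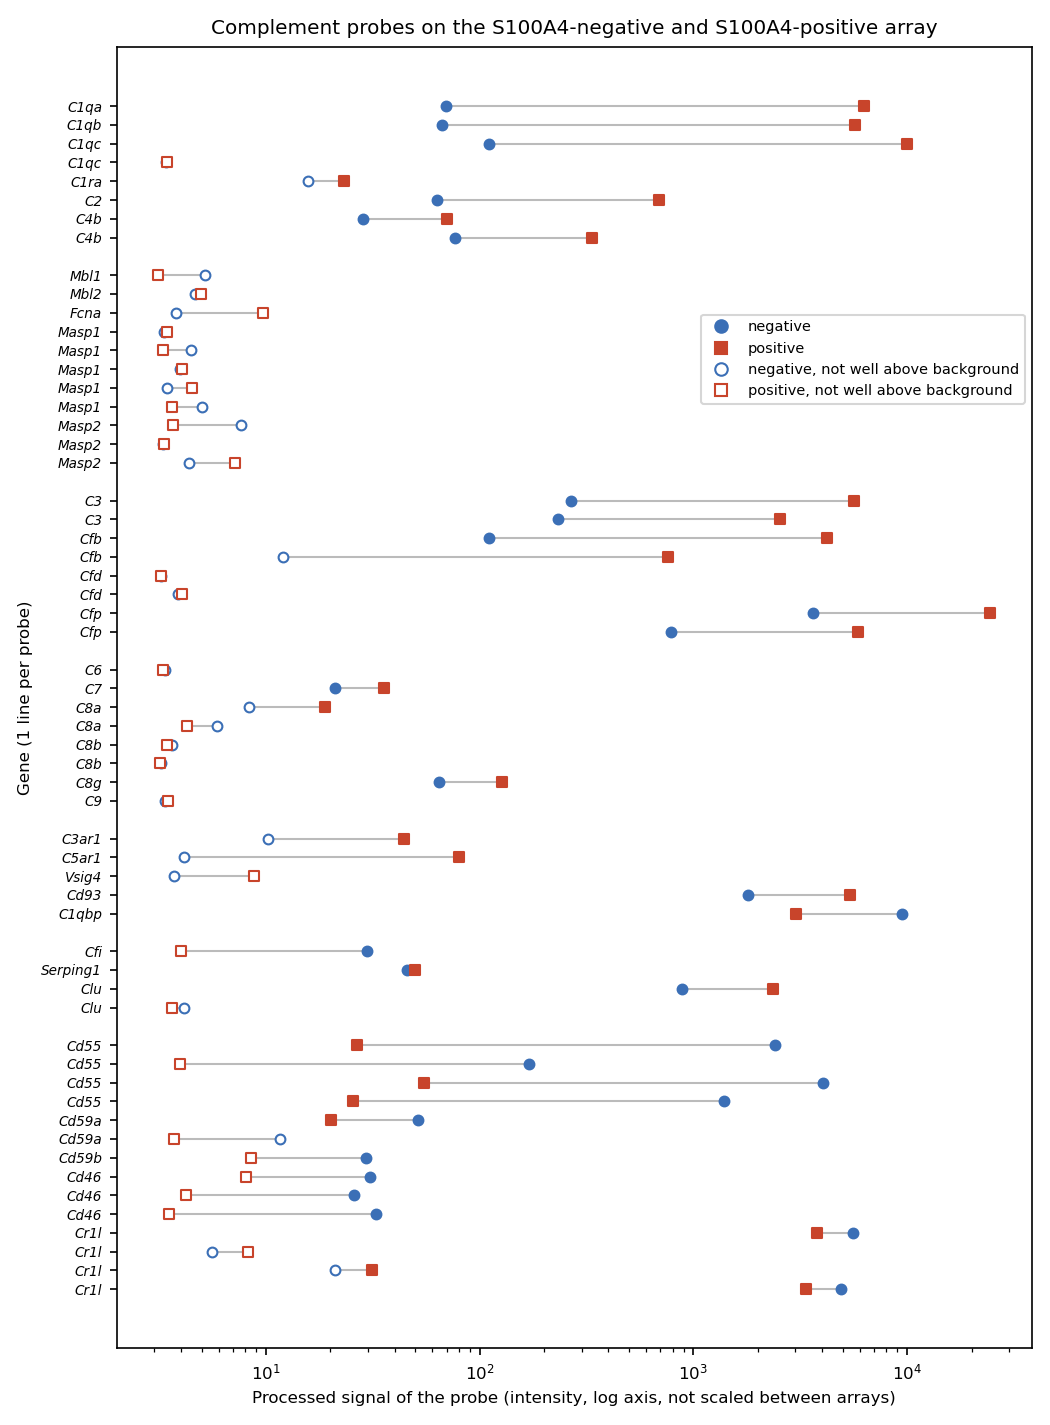
Processed signal of each of the 58 complement probes (log axis, intensity units, not scaled between arrays) on the S100A4-negative array (circles) and the S100A4-positive array (squares), in the order classical pathway, lectin pathway, C3 and alternative pathway, terminal pathway, receptors, soluble regulators and membrane regulators; open symbols were not well above background. The C1q, C3, Cfb and Cfp squares lie far to the right of their circles, the Cd55 squares far to the left, and the lectin pathway probes are open on both arrays.

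Classical pathway genes were higher in the positive cells in all 6 cases on the array, the C1q genes most. C1qa read 69.4 in the negative cells and 6272 in the positive cells, 140-fold apart after scaling. C1qb read 66.3 and 5681, and C1qc, at the probe detected here, 111 and 9965. The positive array was thus high for all 3 chains, and each was also well above background on the negative array. Their differences were 7.13 ± 0.22 (C1qa), 7.06 ± 0.22 (C1qb) and 7.12 ± 0.21 (C1qc), a range of 0.08 that is smaller than the software error of each. With normexp background correction they were lower and less alike, at 6.20, 5.96 and 6.35, and C1qb and C1qc then differed by more than these errors. The probes of different C1q genes shared no run longer than 6 bases. Another C1qc probe, at chr4:136447831-136447890 and designed on an Ensembl transcript, was not well above background on either array.

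The C1q genes lie within 15.9 kb of chromosome 4 by their probes. Promoter windows of C1qb and C1qc are shown because these neighbours differed alike between the arrays; the window of C1qa was not analysed here. They are the 250 bases before the transcription start from RefSeq on GRCm38.p6, at chr4:136886201-136886450 and chr4:136892915-136893164, both on the minus strand, printed 5′ to 3′ with capitals marking the PU box letters GAGGAA, searched on both strands, which the myeloid factor PU.1 can bind.
C1qb promoter: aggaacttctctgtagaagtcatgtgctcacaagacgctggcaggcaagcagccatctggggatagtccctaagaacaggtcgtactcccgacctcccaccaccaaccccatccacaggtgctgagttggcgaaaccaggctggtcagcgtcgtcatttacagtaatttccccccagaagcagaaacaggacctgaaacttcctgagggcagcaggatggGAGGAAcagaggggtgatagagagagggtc
C1qc promoter: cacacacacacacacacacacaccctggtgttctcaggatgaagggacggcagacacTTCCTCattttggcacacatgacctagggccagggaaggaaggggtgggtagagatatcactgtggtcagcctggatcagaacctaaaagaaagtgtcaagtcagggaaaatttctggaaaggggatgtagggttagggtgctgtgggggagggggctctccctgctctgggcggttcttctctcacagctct

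The match began 30 bases before the start in C1qb, on the strand of the gene, and 193 bases before it in C1qc, on the other strand. Such letters are common: 23.3% of 32851 windows of the same length held them. Among complement genes they stood in the windows of 5 of 25 (C1qb, C1qc, Cd59a, Fcna and Vsig4). An interferon response type motif (GAAA, any 2 bases, GAAA, both strands) stood in the window of 1 of 25, Cd59a, and in 2.98% of all windows. A STAT type motif (TTCNNNGAA, the same on both strands) stood in those of 3 of 25 (C7, C8a and Masp2) and in 7.02% of all. The letters are descriptions of the windows and show no binding.

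C2, the protease that C1s cleaves, read 63.0 and 687, a difference of 4.08 ± 0.22 or 16.9-fold. C4b, the other substrate, was higher at both of its probes: 1 read 76.5 and 336 (2.77 ± 0.22) and the other 28.5 and 70.6 (1.94 ± 0.28). C1ra, the protease bound to C1q, read 15.7 and 23.1. It was well above background on the positive array only, by a small margin, and at least 2.22-fold higher; its difference was under 2-fold with normexp background correction (0.71), quantile normalization (0.73), no scaling (0.52) and in the deposited table (0.73), and it had no fold on the spike-in scale. C4b came to 0.27 on the spike-in scale. The near copies C4a and C1rb were not well above background at any probe, and the probes of C4b and C4a shared at most 6 bases in a row and those of C1ra and C1rb at most 5; hybridisation of transcripts of one copy to the other's probe was not tested.

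Markers of mononuclear phagocytes moved with the classical pathway genes. All 11 macrophage and monocyte markers were at least 2-fold higher in the positive cells, and their summed signal, in units of the 75th percentile, was 31.7 in the negative cells and 676 in the positive cells; Fcgr1 and Mertk were among the 3 below background on the negative array. All 7 detected classical dendritic cell markers were higher too (7.53 and 102), with Xcr1 below background on both arrays. Cd209a, Clec9a and Zbtb46 were below background on the negative array. All 5 markers of innate lymphoid cells were higher as well (10.4 and 337), with Il23r below background on the negative array. Markers seen on the positive array alone could only come out higher. Over all named genes 21.3% were higher. Among markers of fibroblasts and lymphoid stroma, which can also express C1r, C4 and C3, 4 of 7 were higher and 1 was lower. The sums were 1.02 and 3.53. Of those higher, Lum, Pdgfrb and Pdpn were seen on the positive array alone and could only come out higher. Dcn (1.20) was measured on both arrays. The collagen gene Col1a1, seen on the negative array alone, was the one lower (a bound of -1.16). Col1a2 (-0.78) and Col3a1 (-0.51), measured on both arrays, lay within 2-fold, and Pdgfra was below background on both. The part of these cells in the complement differences was not tested.

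Lectin pathway genes were not detected in either group. None of the 11 probes of Mbl1, Mbl2, Fcna, Masp1 and Masp2, which encode the mannose-binding lectins, ficolin A and their proteases, was well above background. Fcna, a gene of some macrophages, read 3.79 in the negative cells and 9.71 in the positive cells, both below the lowest signal well above background on that array (16.1 and 15.7). The 18 probes of the 10 undetected genes had signals from 3.14 to 9.71. Not being detected is common on this array, since 38.6% of the 24787 named genes were well above background on neither array.

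C3 and the alternative pathway genes were higher with the exception of Cfd, which was not detected. C3, the component on which all pathways converge, read 267 and 5634 at its brighter probe, a difference of 5.04 ± 0.21 or 32.8-fold. The other C3 probe read 231 and 2534, a difference of 4.09 ± 0.21. The 2 probes thus agree in direction and differ by 0.95, more than their errors. Cfb, which encodes factor B, read 110 and 4204 (5.89 ± 0.21, 59.2-fold); its other probe read 12.0, not well above background, and 761, at least 73.1-fold higher. Cfp, which encodes properdin, was bright on both arrays, at 3619 and 24513 for 1 probe and 784 and 5860 for the other, and its differences were 3.39 ± 0.20 and 3.54 ± 0.20. On the spike-in scale Cfp was under 2-fold, at 0.89. Both probes of Cfd, the protease factor D, read between 3.22 and 4.06 on both arrays.

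Cfb, C2 and C4b are neighbours, with probes within 134 kb of chromosome 17 (chr17:34865367-34999634, mm9), and all were higher, but not equally: 5.89, 4.08 and 2.77. These 3 differ from each other by more than the software errors. The C1q genes did not, except with normexp correction. C3 lies elsewhere on the same chromosome, with probes at chr17:57343416-57343475 and chr17:57343678-57343737.

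**Figure D2:**
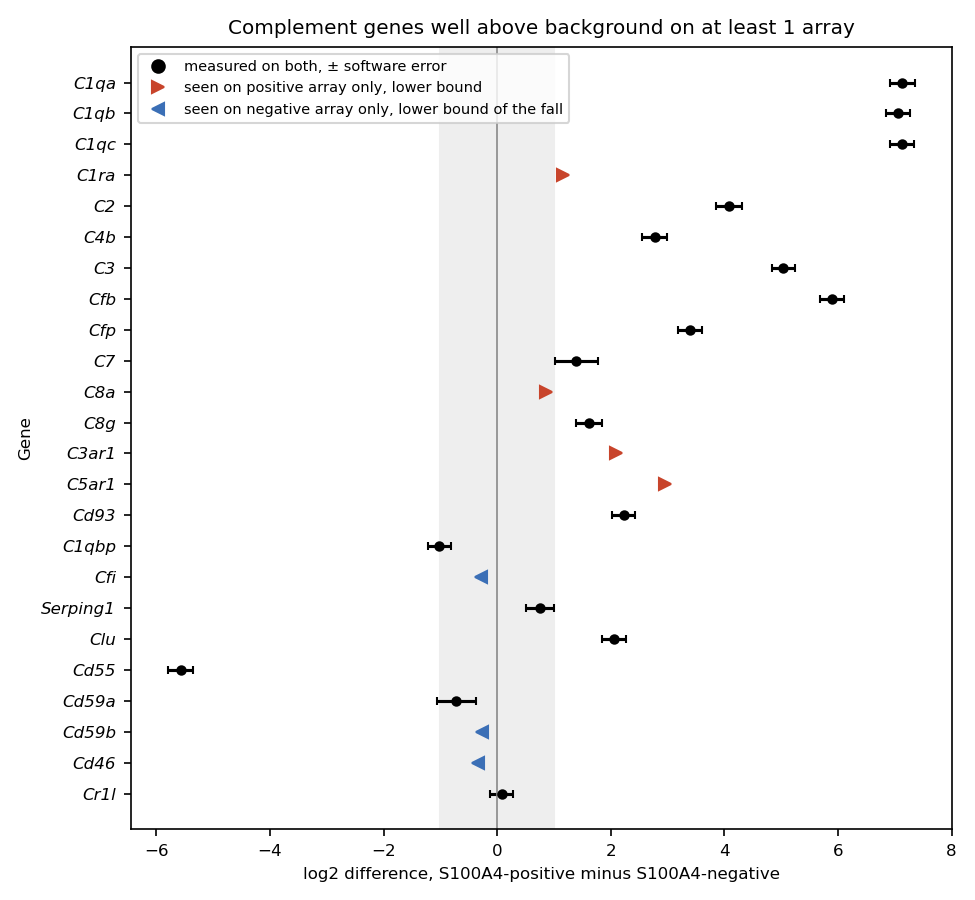
Log2 difference between the positive and the negative array for the 24 complement genes detected on 1 array or both, at the brightest detected probe of each; bars are the scanner software's error, triangles are bounds for genes seen on 1 array, and grey marks less than 2-fold. C1qa, C1qb and C1qc stand together between 7.06 and 7.13, and Cd55 stands alone at -5.57.

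Of the 6 terminal pathway genes 3 were detected, all at low signal. C6, C8b and C9, components of the membrane attack complex, were not well above background at any probe. C7 read 21.0 and 35.7, a difference of 1.39 ± 0.38, near the detection limit on both arrays; it came to 0.59 with normexp correction, 0.76 with no scaling and -1.10 on the spike-in scale. C8g, which encodes the gamma chain of C8, read 64.8 and 128 (1.61 ± 0.22), and came to 0.98 with no scaling and -0.89 on the spike-in scale. C8a read 8.35, below background, and 18.8 at 1 probe, and was at least 1.81-fold higher, and its other probe was not detected.

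Both receptors for the fragments C3a and C5a were higher in the positive cells relative to the 75th percentile, and under 2-fold or without a fold on the spike-in scale. C5ar1, the receptor for the chemoattractant C5a, read 4.16 on the negative array, not well above background, and 80.2 on the positive array, at least 7.71-fold higher. The array files place only 42 bases of that probe on the genome, and the bound came to 0.45 on the spike-in scale. C3ar1, the receptor for C3a, read 10.2, not well above background, and 44.4, at least 4.27-fold higher. With normexp correction C3ar1 came to 0.99, just under 2-fold, and it had no fold on the spike-in scale. Both receptors were seen on the positive array alone.

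Cd93, a receptor of endothelial and myeloid cells and of B cell precursors first described as a C1q receptor, was bright on both arrays, at 1795 and 5419, a difference of 2.23 ± 0.20 or 4.68-fold. It came to -0.27 on the spike-in scale. Vsig4, a C3b receptor of resident macrophages, read 3.71 and 8.75 and was not well above background on either array, although the macrophage markers were high. C1qbp, named for C1q binding and best known as a mitochondrial matrix protein, went the other way, at 9462 and 3003, a difference of -1.02 ± 0.20, at the edge of the 2-fold size. Endothelial markers were higher in 4 of 5 detected cases, with summed signals of 0.62 and 3.34 and Tek below background on both arrays. Cdh5, Emcn and Kdr were below background on the negative array and could only come out higher. Eng (4.73) and Pecam1 (-0.25) were measured on both arrays. Over all named genes 21.3% were higher. Neutrophil markers were higher in 2 and lower in 2 of 6 cases, with sums of 83.0 and 125. The part of these cells in the receptor signals was not tested.

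Soluble regulators had no common direction. Clu, which encodes clusterin, an inhibitor of the terminal complex, read 881 and 2362 at 1 probe, a difference of 2.06 ± 0.20, or -0.44 on the spike-in scale. Its other probe, designed on an Ensembl transcript, was not detected. Follicular dendritic cells express Clu, and in the marker list for these cells 3 of 5 members were higher, Clu itself, Cxcl13 (2.18) and Madcam1 (at least 1.05), while Cr2 and Fcer2a, both also genes of B cells, were lower; the summed signals were 50.4 and 10.3, and the part of these cells in the Clu difference was not tested. Serping1, which encodes the C1 inhibitor, read 45.9 and 49.9, a difference of 0.75 ± 0.25, or -1.75 on the spike-in scale. Cfi, the protease factor I that inactivates C3b and C4b, read 29.8 in the negative cells and 3.99 in the positive cells, where it was below background; its bound of at least 1.22-fold lower is under the 2-fold size.

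Of the 5 membrane regulators none was 2-fold higher at its brightest probe, and Cd55 was far lower. Cd55, which encodes decay-accelerating factor, read 4052 in the negative cells and 54.8 in the positive cells at its brightest probe, a difference of -5.57 ± 0.22 or 47.7-fold. The probe printed above read 1389 and 25.5 (-5.13 ± 0.29), and that at chr1:132336925-132344911 read 2418 and 26.7 (-5.87 ± 0.29). A probe at chr1:132344000-132344059 read 171 on the negative array, was below background on the other, and was at least 7.0-fold lower. All 4 Cd55 probes therefore had the same direction, and the brightest kept it under each scaling and correction, from -4.25 with normexp correction to -8.07 on the spike-in scale.

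Cr1l, the mouse regulator Crry that acts on C3 and C4 convertases, read 5550 and 3773 at 1 probe and 4903 and 3357 at another. After scaling these gave 0.08 ± 0.20 and 0.09 ± 0.20, smaller than their errors. Another Cr1l probe, designed on a cDNA clone, read 21.1 and 31.5, was seen on the positive array only near the detection limit, and had a bound of 1.21, so it disagrees with the bright probes. A further Cr1l probe read 5.60 and 8.27 and was not well above background on either array. The level of Cr1l was thus alike relative to the 75th percentile, although on the spike-in scale it was lower, at -2.42. Cd59a, an inhibitor of the membrane attack complex, read 51.5 and 20.2 at 1 probe, a difference of -0.72 ± 0.34. That difference came to 0.16 with normexp correction and -1.07 with quantile normalization and in the deposited table. It was -1.35 with no scaling and -3.22 on the spike-in scale. The other Cd59a probe read 11.7 and 3.71, not well above background on either array. The neighbouring gene Cd59b read 29.4 and 8.49. The 3 probes of Cd46, a cofactor for factor I, read 25.9 to 32.7 on the negative array and 3.51 to 8.09 on the positive array. Both genes were well above background on the negative array alone, and their bounds, at least 1.20-fold and 1.26-fold lower, are too near the detection limit to show a difference of 2-fold.

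All 6 B cell markers were lower in the positive cells, with summed signals of 388 and 19.3 and Pax5 below background on the positive array. Of the 9 enterocyte and goblet cell markers 8 were lower (40.1 and 3.35, Alpi and Muc2 below background on the positive array), and all 5 T cell markers on the array were lower (102 and 7.47). All of these cell types can express Cd55, and their part in its difference was not tested.

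**Figure D3:**
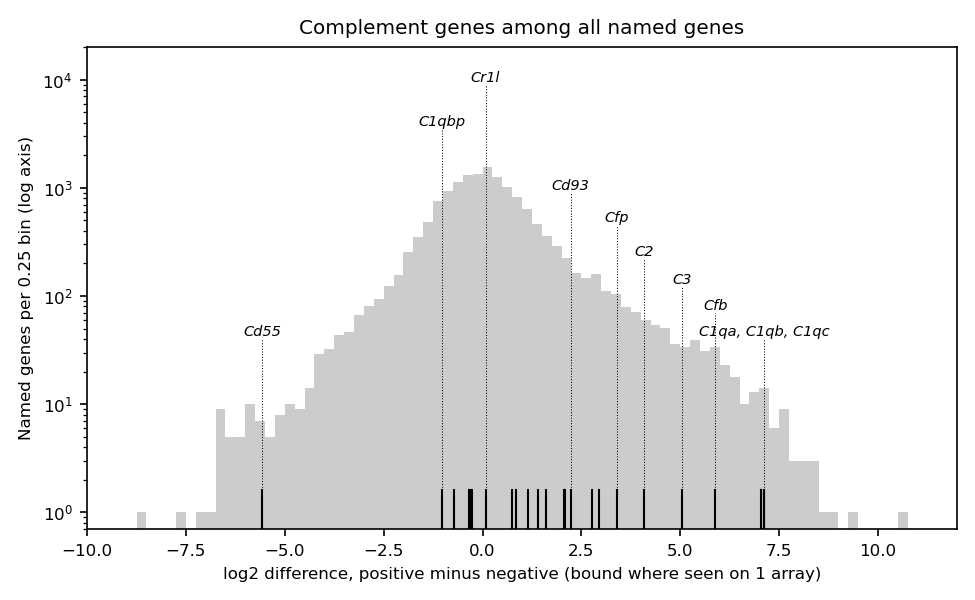
Distribution of the log2 difference over 15228 named genes (grey, log count axis, bound where a gene was seen on 1 array), with a tick for each of the 24 complement genes and the names of 11 of them. Ticks are spread from -5.57 (Cd55) to 7.13 (C1qa), and 15 lie at or above 1.

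Other genes of the pathway were taken from a list of 35 chosen by function. Of these 18 were well above background on at least 1 array, 8 of them higher and 3 lower by at least 2-fold, and the median difference was 0.52. Over all named genes 21.3% were higher and 17.0% lower, so the count of 3 lower is near that background and is no result about the list. Cfhr2 lay at 0.05 ± 0.20 at the brighter probe and was at least 4.90-fold higher at another, so its probes disagree. Susd4, a membrane inhibitor of complement, was lower (-2.18 ± 0.30). Carboxypeptidase genes Cpn1 (at least 4.78-fold) and Cpb2 (1.32 ± 0.21), whose products inactivate C3a and C5a, were higher, as was Thbd, the thrombomodulin gene (1.45 ± 0.21). Cpn2, of the same list, was not well above background on either array. On the spike-in scale 3 genes of this list were at least 2-fold higher and 13 lower, where 3.91% and 83.1% of all named genes were.

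Receptor genes of this list diverged. Itgax, the alpha chain of complement receptor 4, read 1184 and 12781 (4.07 ± 0.20), while Itgam, the alpha chain of complement receptor 3, lay at 0.47 ± 0.20 at its bright probe, and at least 2.91-fold higher at a dim one, and their shared beta chain Itgb2 at 0.46 ± 0.20. The second C5a receptor, C5ar2, read 231 and 376 (1.34 ± 0.21). Lrp1, an endocytic receptor reported to bind C1q, lay at 4.26 ± 0.24 at its brightest probe. At dimmer Lrp1 probes, seen on the positive array only, it was at least 4.35-fold and 2.72-fold higher. Cd209b, the lectin SIGN-R1, was at least 6.84-fold higher at 1 probe, and its other probe was not detected. Cr2, the gene of complement receptors 2 and 1 of B cells and follicular dendritic cells, read 12067 and 158 (-5.62 ± 0.21) and was lower at all 3 of its probes. Colec12 (0.58), C1rl (0.36), Calr (-0.28) and the IgG receptor gene Fcgr2b (-0.42) lay within 2-fold. The 16 genes on the array that were not detected included Hc, which encodes C5, the C4-binding protein gene C4bp, the collectins Colec10 and Colec11 and the pentraxins Ptx3, Apcs and Crp.

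**Figure D4:**
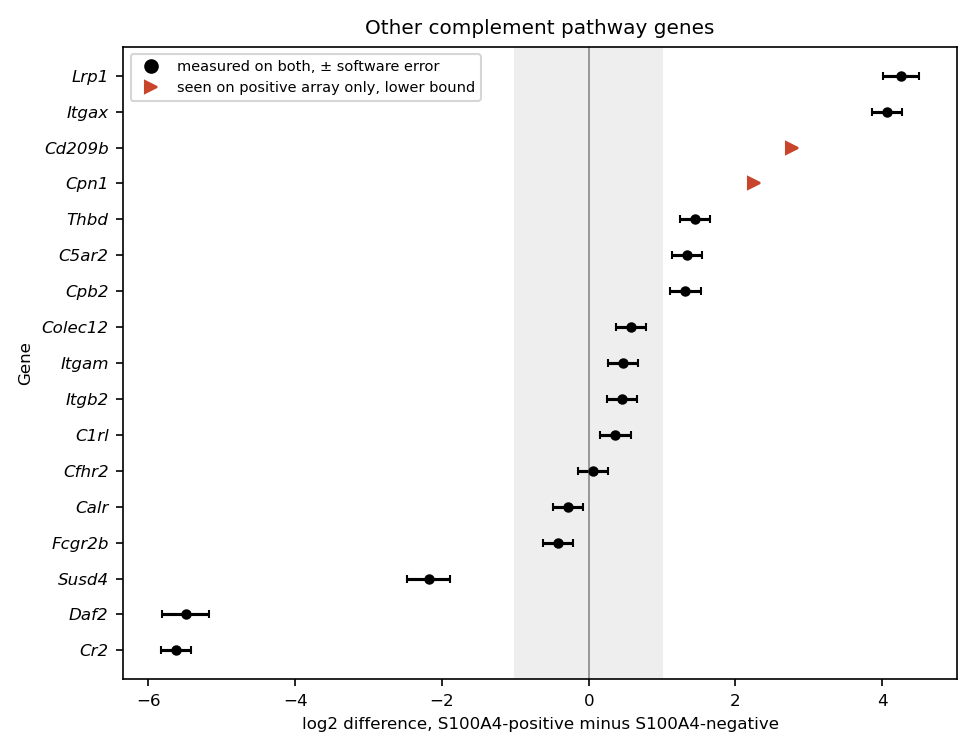
Log2 difference between the positive and the negative array for 17 other complement pathway genes at the brightest detected probe; bars are the scanner software's error, triangles are lower bounds for genes seen on the positive array alone, and grey marks less than 2-fold. Lrp1 and Itgax lie above 4, and Daf2 and Cr2 below -5.

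Cd55 has a near copy beside it, named Daf2 on this array, with probes of the pair within 68.4 kb of chromosome 1. At its brighter probe Daf2 read 1441 and 20.6, a difference of -5.49 ± 0.33. That differs from the value of the brightest Cd55 probe by less than the errors. The other Daf2 probe read 93.4 on the negative array, was below background on the positive array, and was at least 3.82-fold lower. Probes of the 2 genes shared no run longer than 6 bases, but whether transcripts of each reach the other's probes was not tested, so the split between the copies is uncertain. A second cluster on the same chromosome holds Cd46, Cr1l and Cr2 within 99.3 kb of chr1:196868154-196967430 (mm9). There the neighbours differed: Cr2 was at -5.62, Cr1l at 0.08 and Cd46 at a bound of -0.33.

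**Figure D5:**
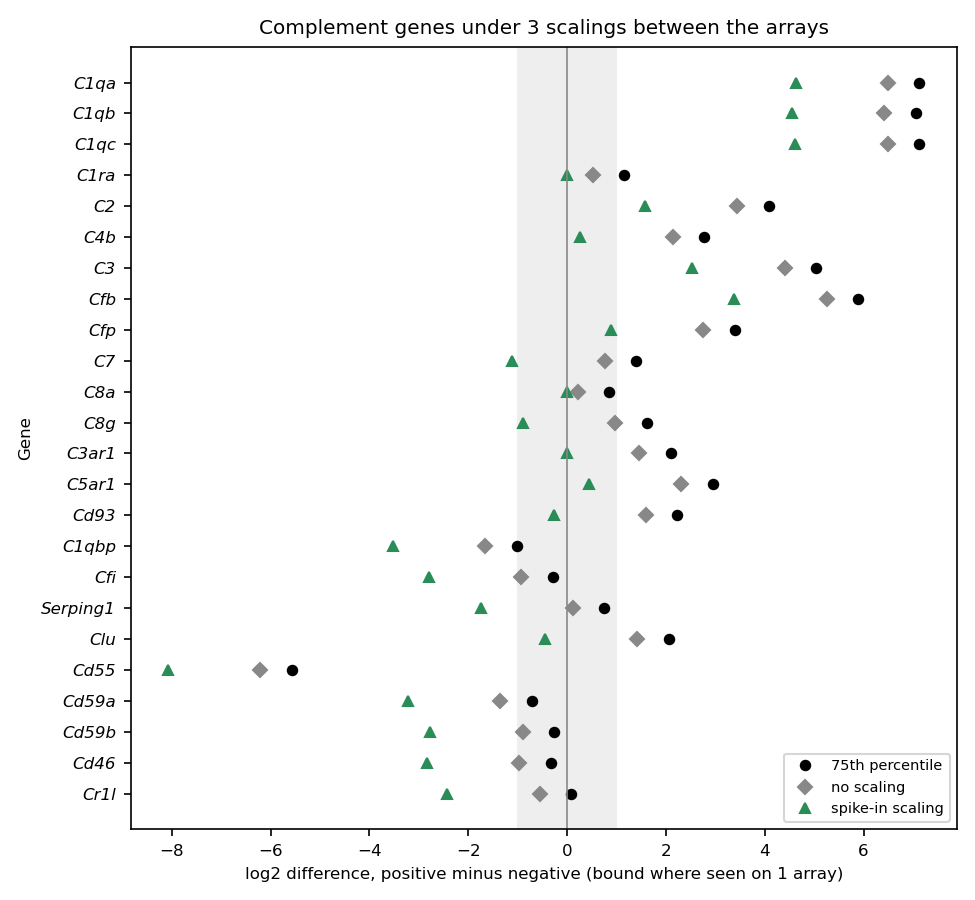
Log2 difference between the positive and the negative array for the 24 complement genes under 3 scalings between the arrays, with bounds where a gene was seen on 1 array (a bound of 0 gives no fold); grey marks less than 2-fold. Points move left together from the 75th percentile to the spike-in scale, where C1qa is at 4.63 and Cfb at 3.39, and Cd55 is below 0 on all 3.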

How the data were processed

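Total RNA of 1 sorted sample per group was amplified, labelled with Cy3 and hybridised to 1-colour Agilent arrays of design 74809, per the labels' protocols and the file headers. Per the file headers the authors extracted spots with Agilent Feature Extraction 10.7.1.1; version 9.5.1.1 stands in the submitters' processing notes. The intensity values deposited in the scanner tables are background-subtracted and spatially detrended, with surrogates for spots not above background, and are not normalized between arrays. Other deposited values, the flags for spots well above background, outliers and controls, were taken as given.

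Control and outlier spots were left out (138 and 80 non-control outliers on the negative and positive array), replicate spots averaged, and log2 signals centred on each array's 75th percentile. A probe counted as detected where its flag on either array said well above background, and each gene took its brightest detected probe by the mean of the arrays. A bound divides the bright array's value by the lowest signal that passed this flag on the dim array, or by the probe's signal there if that is higher. All named genes means the array's gene names found in RefSeq as a symbol (23666) or synonym (1121); that table is of GRCm38, and coordinates of probes are those of the array files (mm9). Promoter windows are RefSeq's on GRCm38.p6. With 1 array per group no test has residual degrees of freedom, so a fold of 2 was used as a fixed size. The number of arrays limits the precision. Over 285 probes spotted 10 times the median SD between spots was 0.12 and 0.04 (log2).

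The members and lists were chosen with earlier results of these data known. All members are named, with every probe, and of the other pathway genes those detected. Alternatives were normexp (offset 50, limma 3.58.1 in R 4.3.3), quantile, other percentile, spike-in and no scaling, other filters and probe choices, and the deposited table of the series, in intensity, with a median of 19.6 in both columns and its normalization not given in the sources used here. Other steps ran in Python 3.11.15 (pandas 2.3.3, numpy 2.4.6) and were tested on simulated data. A detected gene of the other pathway list and a macrophage marker are counted in their lists but not reported here.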

Additional observations from a re-analysis of the deposited data

How the results depend on the processing

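No paired analysis was possible because each group is 1 array, and leaving out an array would leave no comparison. Under the 10 alternative settings for signals, filters and probes the 2 genes called lower, Cd55 and C1qbp, stayed at least 2-fold lower in each. With quantile normalization, with no scaling and in the deposited table Cd59a was also at least 2-fold lower, which made 3 lower. Of the 15 called higher, 12 stayed so with normexp correction and with no scaling, 14 with quantile normalization and with the deposited table, 6 on the spike-in scale, and all that had a value under the others (12 of 12 over probes detected on both arrays). On the spike-in scale the counts were 6 higher and 9 lower, and the median difference was -0.57, or -0.14 with bounds. Of the genes called higher, C7 (-1.10), C8g (-0.89), Cd93 (-0.27) and Clu (-0.44) changed sign. Serping1 (0.75 to -1.75) and Cr1l (0.08 to -2.42), both under 2-fold on the main scale, also changed sign. On the spike-in scale the other pathway genes had 3 higher and 13 lower. That scale shifts every gene by about the same amount, and over all named genes the share higher among those at least 2-fold apart went from 55.6% to 4.49%, and to 26.8% with no scaling. The median was 1.07 with normexp correction (1.07 with bounds), 1.30 with no scaling (1.20), 2.23 over probes detected on both arrays and 1.37 with no filter (1.25). With bounds it was 1.56 after quantile normalization and 1.57 in the deposited table. Other pathway genes higher numbered 5 with no scaling and 5 over probes detected on both arrays. At 4-fold 1 member was lower, and with measured values in place of bounds 5 were. Signal over background limits the dim genes: detected spots had a median of 6.80 and 5.35 times the local background, and C1ra, C7, C8a, Cfi, Cd46, Cd59b and Cd59a lie near that limit.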
